A study of Homo sapiens with 12 samples.

Results

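Replication-dependent histone genes are the clustered genes that supply the H1 linker and the H2A, H2B, H3 and H4 core histones while DNA is copied. Their transcripts were followed in 3 human cancer cell lines that had been given oligonucleotides able to fold into G-quadruplexes (G4), structures of stacked guanines. Members were the probe sets whose annotation named 1 gene with a symbol H2AC, H2BC, H3C or H4C plus a number, or H1-1 to H1-6, pseudogenes left out. This gave 48 of 54675 probe sets, for 42 of the 19775 genes named by a probe set of their own: 7 probe sets for 6 H1 genes, 10 for 8 H2A genes, 14 for 13 H2B genes, 8 for 7 H3 genes and 9 for 8 H4 genes. The group was proposed because H2BC4 was lower with the G4 oligonucleotides in all 3 lines while genes of DNA replication were higher. The difference between G4 and control arrays is therefore given below as a description, without a p-value for the members, and nothing is read from how many of them were called in it.

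A replication-dependent histone mRNA normally carries no poly(A) tail. It ends in a conserved stem-loop, which is bound by the protein SLBP and cut by a complex that contains the U7 small nuclear RNA, and it is made in S phase at nuclear bodies organised by NPAT, a substrate of cyclin E and CDK2. Some of these genes also give polyadenylated transcripts, which have been described in cells that leave the cell cycle or differentiate, H2BC12, H2BC21, H2AC6 and H1-2 among them. The usual Affymetrix cRNA protocol starts from an oligo(dT) primer, which favours transcripts with a poly(A) tail; the primer used here is not given in the sources used here, and polyadenylation was not measured.

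Each line received 4 treatments, and 1 array was made per line and treatment, 12 in all. PC-3 is a prostate, HBC4 a breast and MKN74 a gastric cancer line. The controls were the transfection reagent alone (Lipofectamine RNAiMAX) and (uuaccc)4, an RNA oligonucleotide whose repeat has cytosines in place of guanines; the G4 oligonucleotides were (uuaggg)4, an RNA copy of the telomere repeat, and AS1411, a guanine-rich DNA aptamer known to bind nucleolin. About 100 pmol of oligonucleotide per well was transfected into 300000 cells in suspension, the cells were kept in low-adhesion plates for 72 h, and 100 ng of total RNA was labelled. All groups share the reagent, and AS1411 has no matched DNA control among these arrays. No further cultures are named, so a p-value here measures only the spread between these arrays.

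Values are log2 expression, centred so that each probe set has a median of 0 over the 12 arrays; they show differences between arrays but no level and no detection. A G4 difference is the mean of the (uuaggg)4 and AS1411 arrays minus the mean of the 2 control arrays, and its SD is that of the 3 lines. In such bulk RNA, fewer cells that express a gene and less RNA per cell cannot be told apart. Of the prostate markers, HOXB13 was highest in PC-3, by 4.91 over the mean of the other lines (209844_at), while KLK3 and KLK2 differed little between lines. TMPRSS2 was highest in PC-3 on 211689_s_at (1.71) and 226553_at (1.56), with smaller differences on its other probe sets. Of the breast markers, ESR1 was highest in HBC4 on 205225_at, by 3.29, but differed little between lines on its other probe sets. TRPS1 (2.67 on 218502_s_at) and SCGB2A2 (1.23) were also highest in HBC4, and ANKRD30A differed little between lines. GATA3 was high in both HBC4 (2.80 on 209602_s_at) and MKN74 (2.53). Of the gastric markers, TFF1 was highest in the arrays labelled PC-3, by 8.27, and not in those labelled MKN74, as were TFF2 (8.56) and ANXA10 (7.02). MUC5AC was highest in PC-3 on 214303_x_at (2.14) and 214385_s_at (2.39) but not on its other probe sets, and CLDN18 and GKN1 differed little between lines. The gastric markers that differed clearly thus mostly went against the label of MKN74, and every line result below is that of arrays so labelled. PTPRC and CD3E, markers of leukocytes, lay between -0.16 and 0.15 of the mean of the other lines in each line, but CD14 was highest in HBC4 (3.21). The endothelial PECAM1 was highest in PC-3 (3.93 on 208981_at), while VWF (-0.40 on 202112_at, -0.25 on 233980_s_at) and CDH5 (-0.38) were lowest there. The fibroblast COL1A1 was lowest in HBC4 on 1556499_s_at (-3.56) and 202310_s_at (-1.42). The epithelial EPCAM (-2.89), KRT8 (-2.70), KRT18 (-1.39) and CDH1 (-2.20 on 201130_s_at) were lowest in PC-3.

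Most of the genes lie in the histone cluster of chromosome 6 (40 of 42), and the other two on chromosome 1. H2A and H2B genes often stand head to head there and share the DNA between their starts. Promoters were taken from RefSeq (GRCh38.p14), where 40 of the 42 genes matched. They are shown for the H2B and H4 genes called in the G4 contrast described below and for H2BC15, an H2B gene whose G4 difference had the opposite sign. These genes were thus picked by the contrast that the group was proposed from, and nothing is read from the motifs they have or lack. Each sequence is the 250 bases before the annotated start, 5′ to 3′ on the gene's strand. Capitals mark the octamer ATTTGCAT, the CCAAT box, the TATA box TATAAA and GGTCCG, a motif of the H4 promoters' site II, on either strand (ATGCAAAT for the first, ATTGG for the CCAAT box, TTTATA for the TATA box and CGGACC for the last); marked motifs can overlap, as CGGACC and the CCAAT box do in H2BC21. H2BC4 (chr6:26123927-26124176, minus strand) shares 245 of these bases with H2AC6, which starts from the other strand; H2BC12 is at chr6:27146859-27147108, minus strand, H2BC21 at chr1:149886683-149886932, minus strand, H4C8 at chr6:26285535-26285784, minus strand and H2BC15 at chr6:27838319-27838568, plus strand.
H2BC4: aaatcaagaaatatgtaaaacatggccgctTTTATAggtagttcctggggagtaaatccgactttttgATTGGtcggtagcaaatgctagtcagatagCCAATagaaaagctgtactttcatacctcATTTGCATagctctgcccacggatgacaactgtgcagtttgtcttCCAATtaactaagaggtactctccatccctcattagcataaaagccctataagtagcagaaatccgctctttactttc
H2BC12: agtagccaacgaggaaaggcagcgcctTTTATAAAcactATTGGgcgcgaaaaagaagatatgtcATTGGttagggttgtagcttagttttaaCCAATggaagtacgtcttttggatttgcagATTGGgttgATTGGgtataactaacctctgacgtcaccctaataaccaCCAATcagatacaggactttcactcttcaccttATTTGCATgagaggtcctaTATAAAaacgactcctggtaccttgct
H2BC21: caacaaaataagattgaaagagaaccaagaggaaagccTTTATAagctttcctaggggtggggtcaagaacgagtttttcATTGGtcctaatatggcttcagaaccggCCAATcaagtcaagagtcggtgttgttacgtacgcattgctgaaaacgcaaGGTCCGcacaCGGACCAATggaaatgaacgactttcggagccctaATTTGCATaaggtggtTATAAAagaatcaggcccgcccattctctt
H4C8: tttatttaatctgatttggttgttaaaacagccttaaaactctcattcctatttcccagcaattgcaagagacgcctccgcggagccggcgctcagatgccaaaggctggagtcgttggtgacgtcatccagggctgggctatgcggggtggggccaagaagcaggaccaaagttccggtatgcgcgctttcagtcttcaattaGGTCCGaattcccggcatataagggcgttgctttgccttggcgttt
H2BC15: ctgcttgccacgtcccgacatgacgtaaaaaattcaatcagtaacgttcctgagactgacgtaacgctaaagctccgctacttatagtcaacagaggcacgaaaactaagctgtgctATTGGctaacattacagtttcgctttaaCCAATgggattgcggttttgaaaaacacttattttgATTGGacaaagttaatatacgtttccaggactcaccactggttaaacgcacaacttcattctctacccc

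The octamer was in 10 of 13 H2B promoters and 6 of 8 H2A promoters, against 1.66% of 27305 promoters of the same length, and in 0 of 6 H1, 0 of 6 H3 and 0 of 7 H4 promoters. GGTCCG was in 6 of 7 H4 promoters, H4C8 included, and in 9.33% of all promoters. The CCAAT box was in 35 of 40 member promoters, against 33% of all promoters, and the TATA box in 27 of 40, against 11.1%. Head-to-head genes share much of these windows and matches on either strand count, so the same site can count for an H2A and an H2B gene. The only TATA box marked in H2BC4 lies at the end of its window toward H2AC6. The octamer was also in H2BC1, H2BC3, H2BC14 and H2BC17, whose G4 arrays did not lie below both controls in every line. A motif match is a description of these letters and not evidence of a bound factor.

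With the G4 oligonucleotides, a few H2B and H2A genes and H4C8 were lower in every line, while most other members differed little or in both directions. Of the 48 probe sets, 13 were lower in all 3 lines (27.1%, against 14.5% of all probe sets), 7 were higher in all 3 (14.6%, against 19.5%) and 28 had mixed signs. In 8 of them, for 7 genes, both G4 arrays lay below both control arrays in each line (16.7%, against 2.98%); none lay above in each line (background 2.81%). At an adjusted p below 0.05 over all probe sets (limma), 5 were called lower (10.4%, against 1.10%) and 0 higher (0.474%). The 5 were H2BC4, H2AC6, H2BC21, H2BC12 and H4C8 (232035_at). Leaving out 1 array at a time gave 1 to 9 calls: 1 without the HBC4 array of the reagent, of (uuaccc)4 or of (uuaggg)4, 2 without AS1411 in HBC4 and without the reagent or (uuaggg)4 in MKN74, 3 without (uuaccc)4 in MKN74 or (uuaggg)4 in PC-3, and 9 without the reagent in PC-3. Without a whole line, 0 members were called without HBC4 and 1 without MKN74, and quantile normalization left 2. The median difference over the members was -0.03, against 0.02 over all probe sets; by class it was -0.31 for H2B, -0.13 for H2A, -0.00 for H1, 0.05 for H4 and 0.08 for H3. Probe sets whose name ends in _x_at or _s_at can bind transcripts of related genes; without them the H2B median was -0.0522.

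**Figure D1:**
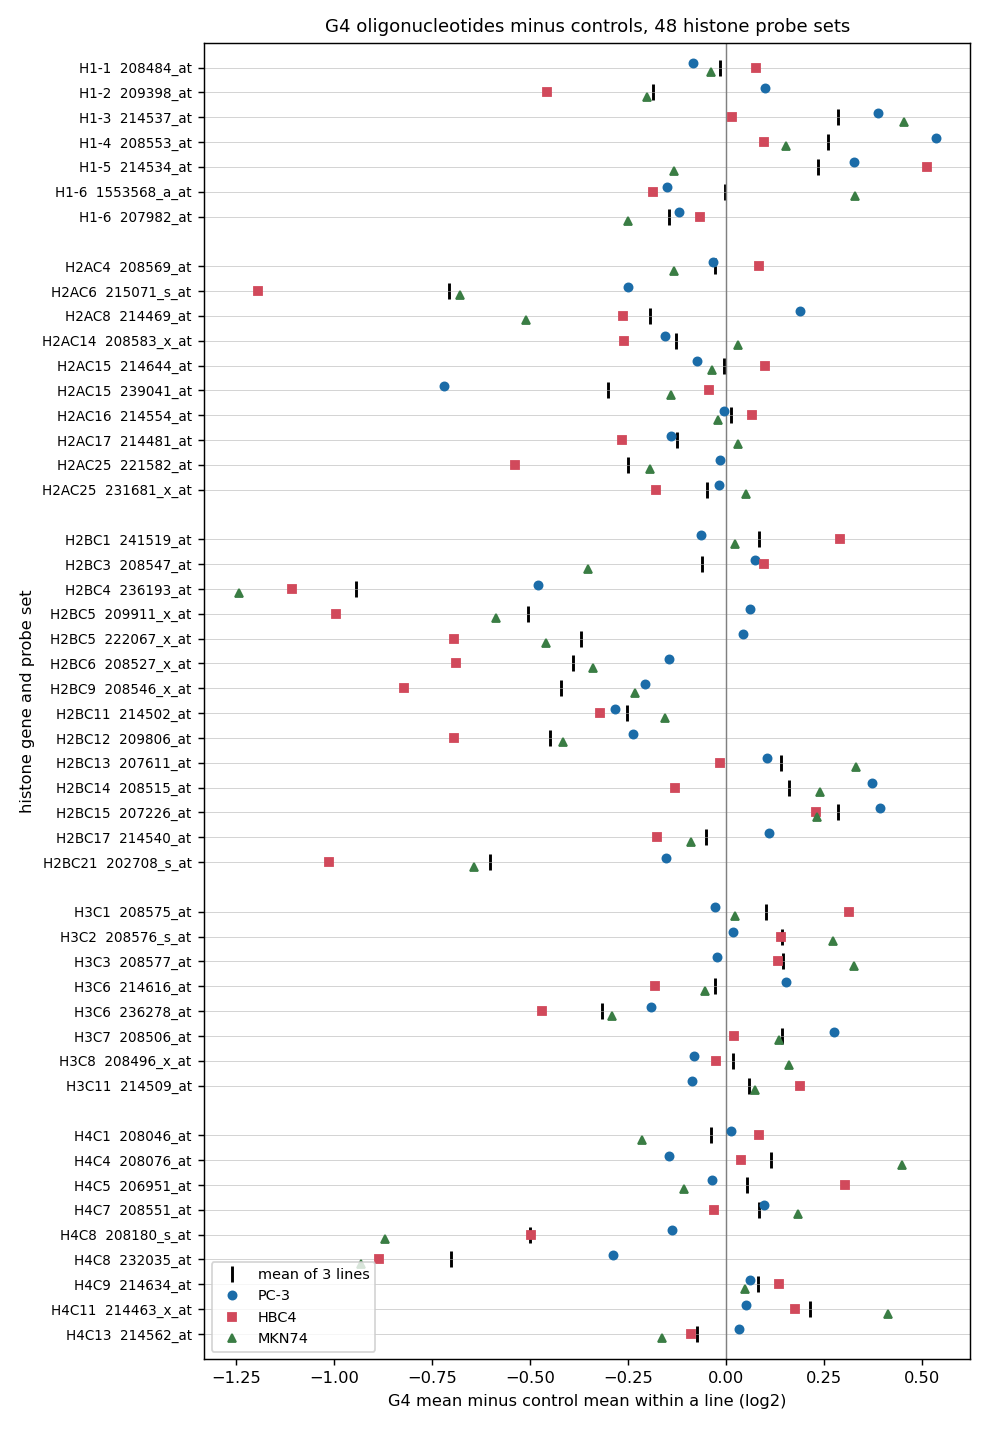
G4 mean minus control mean (log2) within each line for the 48 histone probe sets, grouped by class; blue circles are PC-3, red squares HBC4, green triangles MKN74, and the black tick is the mean of the 3 lines. H2BC4 has the lowest mean, -0.94, and H2BC5 lies at or just above 0 in PC-3 but well below it in the other lines.

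Among the linker histones, which bind the DNA between nucleosomes, no probe set was called, and 207982_at of H1-6 was the only 1 lower in all 3 lines. H1-3 was higher by a mean of 0.28 ± 0.24 (SD, n = 3 lines), with 0.39 in PC-3 and 0.45 in MKN74 but 0.01 in HBC4. H1-4 was higher by 0.26 ± 0.24, mostly in PC-3 (0.53, against 0.10 in HBC4 and 0.15 in MKN74). Both G4 arrays exceeded both controls in PC-3 and MKN74 for each of them, and the arrays overlapped in HBC4. On 207982_at the testis-expressed H1-6 averaged -0.15 ± 0.09, while its other probe set, 1553568_a_at, averaged -0.00 with mixed signs. H1-2 was higher in PC-3 (0.10) and lower in HBC4 (-0.46) and MKN74 (-0.20), with both G4 arrays below both controls in HBC4 and MKN74. H1-5 went the other way, higher in PC-3 (0.33) and HBC4 (0.51) and lower in MKN74 (-0.13).

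H2AC6 was the H2A gene with the lowest difference, -0.71 ± 0.47 (SD, n = 3), or 1.63-fold lower. In PC-3 it stood at 2.54 with the reagent, 2.50 with (uuaccc)4, 2.28 with (uuaggg)4 and 2.26 with AS1411. In HBC4 these values were 0.27, 0.33, -0.68 and -1.11, and in MKN74 they were -0.27, -0.43, -1.02 and -1.03. In each line the G4 arrays were the 2 lowest, and the gap was widest in HBC4. H2AC15 was lower in the 3 lines on 239041_at (-0.30 ± 0.37), but most of this came from PC-3, where the controls read 1.28 and 1.12 and the G4 arrays 0.59 and 0.37; its other probe set, 214644_at, averaged -0.01. H2AC25 was lower in the 3 lines on 221582_at (-0.25 ± 0.27), chiefly in HBC4 (-0.54), and averaged -0.05 on 231681_x_at. H2AC8 was 0.19 higher in PC-3 and lower in HBC4 (-0.26) and MKN74 (-0.51). H2AC4 and H2AC16 averaged -0.03 and 0.01, and H2AC14 and H2AC17 both -0.13, with a positive sign in MKN74. No H2A probe set was higher in all 3 lines.

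H2B, which pairs with H2A in the nucleosome, held 4 of the 8 probe sets whose G4 arrays lay below both controls in each line. H2BC4 had the lowest mean of all members, -0.94 ± 0.41 (SD, n = 3), or 1.92-fold lower. Its PC-3 arrays read 2.66 with the reagent, 2.71 with (uuaccc)4, 2.18 with (uuaggg)4 and 2.23 with AS1411. Its HBC4 arrays read -1.39, -1.57, -2.57 and -2.60 in the same order, and its MKN74 arrays 0.58, 0.58, -0.58 and -0.75. The G4 arrays were the 2 lowest of each line and lay close to each other, as did the 2 controls. The difference was smallest in PC-3 (-0.48) and over 1 log2 unit in HBC4 (-1.11) and MKN74 (-1.24).

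H2BC21, on chromosome 1, averaged -0.60 ± 0.43, or 1.52-fold lower. It read 2.80, 2.89, 2.66 and 2.72 in PC-3 (reagent, (uuaccc)4, (uuaggg)4, AS1411), where the groups were separated by a narrow gap. In HBC4 it read 0.21, 0.01, -0.80 and -1.01, and in MKN74 -0.01, -0.21, -0.69 and -0.81. H2BC12 was more even, at -0.45 ± 0.23 (1.37-fold lower), with HBC4 lowest (-0.69), then MKN74 (-0.42) and PC-3 (-0.24). Its arrays of a kind agreed closely: in HBC4 the controls read -0.05 and 0.04 and both G4 arrays -0.70. H2BC6 averaged -0.39 ± 0.28, in the same order of lines (-0.69, -0.34 and -0.15).

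Other H2B genes differed from this in a single line or more. H2BC5 on 209911_x_at read 0.83, 0.89, 0.90 and 0.95 in PC-3, where the G4 arrays were the higher ones. It read 0.10, -0.25, -0.98 and -1.17 in HBC4 and 0.15, -0.10, -0.59 and -0.52 in MKN74, where they were the lower ones. Its other probe set, 222067_x_at, had the same order of lines: PC-3 at 0.04, MKN74 at -0.46 and HBC4 at -0.69. H2BC9 (-0.42 ± 0.35) and H2BC11 (-0.25 ± 0.09) were lower in all 3 lines, but their arrays overlapped in MKN74. H2BC15 was the only H2B gene higher in all 3 lines (0.28 ± 0.09), and H2BC13 and H2BC14 averaged 0.14 and 0.16 with a negative sign in HBC4. H2BC1, a testis histone, and H2BC3 and H2BC17 averaged between -0.06 and 0.08.

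**Figure D2:**
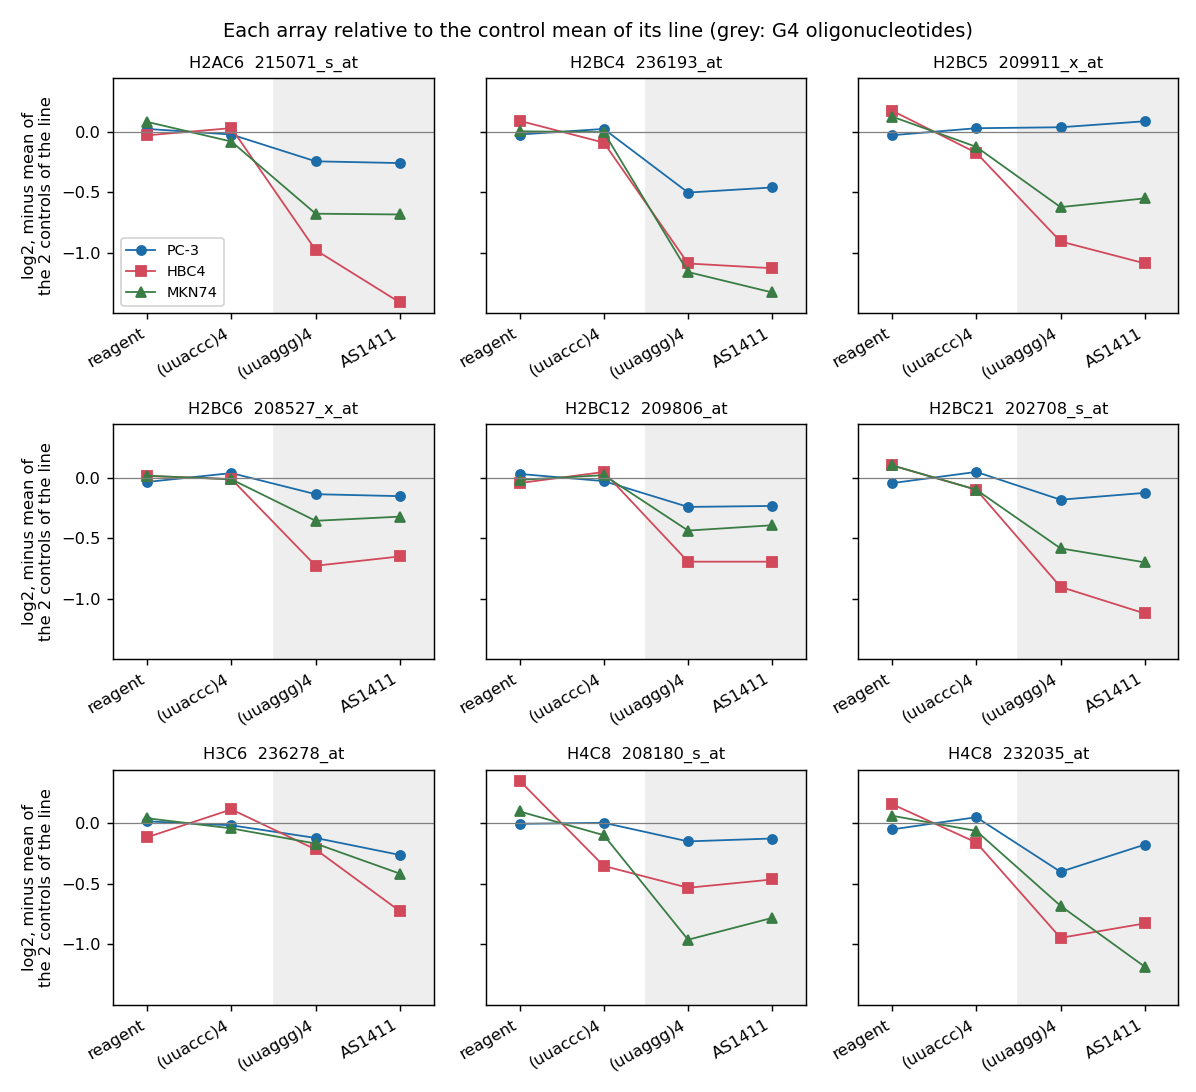
Each array's log2 value minus the mean of the 2 control arrays of its line, for the 8 probe sets whose G4 arrays lay below both controls in all 3 lines and for H2BC5; colours and markers are the lines, lines join arrays of a cell line only to guide the eye, and the grey area holds the G4 oligonucleotides. In H2BC4 the (uuaggg)4 and AS1411 points lie close together in every line, while H2BC5 is flat in PC-3.

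H3 and H4 form the tetramer at the core of the nucleosome. Among H3 genes only H3C6 was lower in all 3 lines, by -0.32 ± 0.14 on 236278_at, and its other probe set 214616_at averaged -0.03. The first read 1.59, 1.56, 1.45 and 1.31 in PC-3, -0.23, 0.00, -0.33 and -0.84 in HBC4, and 0.08, -0.00, -0.13 and -0.37 in MKN74. AS1411 was the lowest array of each line. H3C2 and H3C7 were higher in all 3 lines, both by 0.14 ± 0.13, and H3C1, H3C3, H3C8 and H3C11 averaged between 0.02 and 0.14 with mixed signs.

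H4C8 was lower on both of its probe sets, at -0.70 ± 0.36 on 232035_at (1.63-fold) and -0.50 ± 0.37 on 208180_s_at. On 232035_at the reagent, (uuaccc)4, (uuaggg)4 and AS1411 arrays read 2.97, 3.07, 2.62 and 2.85 in PC-3. They read -1.61, -1.93, -2.72 and -2.60 in HBC4 and 0.43, 0.31, -0.31 and -0.81 in MKN74. All G4 arrays lay below their controls, and the separation was narrowest in PC-3. H4C11 (0.21 ± 0.18) and H4C9 (0.08 ± 0.05) were higher in all 3 lines. H4C1, H4C4, H4C5, H4C7 and H4C13 averaged between -0.07 and 0.11 with mixed signs.

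Head-to-head neighbours that share upstream DNA could be set side by side in 4 pairs. H2BC4 and H2AC6, which share 245 of the 250 bases, were both lower (-0.94 and -0.71). H2AC14 and H2BC14 share 244 bases and averaged -0.13 and 0.16, and H2AC17 and H2BC17 share 239 and averaged -0.13 and -0.05. H2AC15 and H2BC15 share 193 and averaged -0.01 or -0.30, depending on the H2AC15 probe set, and 0.28. Other neighbours on opposite strands had no overlap of the windows, and whether their starts face each other was not checked. H2BC12 and H4C9 averaged -0.45 and 0.08, H3C7 and H2BC9 0.14 and -0.42, and H1-1 and H3C1 -0.02 and 0.10.

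A further 20 probe sets named several genes with a replication-dependent histone among them and were left out of the members. Those led by an H2B gene (5) were all lower in 3 lines, with a median of -0.64. The 5 led by an H2A gene had a median of -0.45, with 2 lower in 3 lines, and the 4 led by an H3 gene a median of -0.37, with mixed signs. Of these 4, 214472_at (-0.37) and 214522_x_at (-0.38) also name the H2A gene H2AC7. The others, 206110_at (-0.36) and 214646_at (0.06), name H3 genes only. Of the 6 led by an H4 gene, 1 was higher in 3 lines and none lower; that probe set, 205967_at, names 14 H4 genes and differed by 0.43. H2BC12L, a gene named for its likeness to H2BC12 that the naming rule leaves out, averaged -0.49. Genes of a histone class are close in sequence, so signal shared between copies cannot be told apart on these arrays.

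The G4 contrast is made of an RNA and a DNA comparison, which share no array. (uuaggg)4 against (uuaccc)4 gave -0.89 for H2BC4, -0.61 for H2AC6, -0.51 for H2BC21, -0.47 for H2BC12 and -0.62 for H4C8 (232035_at). AS1411 against the reagent gave -0.995, -0.81, -0.70, -0.43 and -0.79 for the same probe sets. The G4 arrays of these probe sets lay below both controls in every line, so a negative sign in both comparisons was fixed in advance. Calls numbered 0 of 48 in the RNA comparison (0.165% of all probe sets) and 1 of 48, H2BC4, in the DNA comparison (0.350%). At an unadjusted p below 0.05 the RNA comparison had 11 of 48 (22.9%, against 9.26% of all probe sets) and the DNA comparison 13 of 48 (27.1%, against 11.8%). Both comparisons are parts of the contrast that the group was proposed from, so these counts are a description and nothing is read from them. The H2BC4 call was lost without any 1 of 6 arrays: any array of HBC4, or the reagent or AS1411 array of MKN74. In the RNA comparison 1 member was called without the PC-3 array of AS1411 or of the reagent.

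The remaining 2 treatment contrasts were independent of the way the genes were chosen and were tested (limma, Benjamini-Hochberg over 54613 probe sets). The first asked whether an RNA oligonucleotide that does not form a G4 changed histone transcripts. Between (uuaccc)4 and the reagent 0 of 48 were called (0% of all probe sets), and 0 of 48 passed an unadjusted p below 0.05, against 3.12% of all probe sets. The smallest p-value belonged to H4C8 on 208180_s_at, whose arrays read 2.96 and 2.97 in PC-3, -1.35 and -2.05 in HBC4, and 0.54 and 0.34 in MKN74 (reagent, then (uuaccc)4; difference -0.30, limma adjusted p = 1.00). H2AC16 followed with a difference of 0.22 (limma adjusted p = 1.00), of which HBC4 gave most (0.06 and 0.51). For H2BC4 the difference was -0.05. The 95% interval lay within ±0.58 log2 for 46 of the 48 probe sets, and the bounds ran from -0.68 to 0.53.

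The second asked whether the RNA and the DNA oligonucleotide differed. Between AS1411 and (uuaggg)4 0 of 48 were called (0% of all probe sets), and 3 passed an unadjusted p below 0.05 (6.25%, against 4.82% of all probe sets). H3C6 on 236278_at was lower with AS1411 by -0.30 in the mean, and lower in 3 of 3 lines (limma adjusted p = 1.00). H2AC16 was higher by 0.32 (limma adjusted p = 1.00), mainly through HBC4, where (uuaggg)4 read -0.03 and AS1411 0.73. H4C4 was higher by 0.32, in 3 of 3 lines. H2BC4 differed by -0.06, H2BC12 by 0.02, H2BC6 by 0.03 and H4C8 by -0.05 on 232035_at. The H4C8 mean joined opposite signs, with AS1411 above (uuaggg)4 in PC-3 and HBC4 and below it in MKN74. There AS1411 lay at -1.18 and (uuaggg)4 at -0.68 from the control mean. H2AC6 differed by -0.15, mostly through HBC4 (-0.43). For H2BC21, AS1411 lay below (uuaggg)4 in HBC4 and MKN74 and above it in PC-3. The 95% interval lay within ±0.58 for 44 of 48, with bounds from -0.57 to 0.76.

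The size of the G4 difference varied between lines. It was smallest in PC-3 for all 8 of the probe sets below controls in every line, and the order of HBC4 and MKN74 varied: HBC4 was lower for H2AC6, H2BC6, H2BC12, H2BC21 and H3C6, and MKN74 for H2BC4 and both H4C8 probe sets. In the F test of the line by oligonucleotide interaction 0 of 48 were called (0.487% of all probe sets), and 14 passed an unadjusted p below 0.05 (29.2%, against 12% of all probe sets). In this test (uuaggg)4 and AS1411 counted as replicates within a line, and so did the reagent and (uuaccc)4, though these are unlike treatments. The smallest p-values were those of H2BC5 on 209911_x_at (limma adjusted p = 0.0741) and of H2BC4 (limma adjusted p = 0.0767), the gene the group was proposed from. After quantile normalization 4 were called, H2BC4, H2BC5 (209911_x_at), H2AC6 and H2BC21 (limma adjusted p between 0.0255 and 0.0347). With 1 value per gene, H2BC4 was called on averaged probe sets (0.0259), and H2BC4 and H2BC5 on the probe set of largest spread (0.0451 and 0.0481). Without the HBC4 array of (uuaggg)4, 1 member was called.

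Between the lines themselves, histone transcripts were mostly highest in PC-3. The members' median was 0.46 to 0.63 in the 4 PC-3 arrays and -0.17 to 0.0052 in the other 8. Differences between lines were called for 34 of 48 probe sets (limma F test; 61.2% of all probe sets). Of these, 30 were higher in PC-3 than in each other line with both adjusted p below 0.05 (62.5% of the members, against 14.8% of all probe sets): 4 of 7 H1, 7 of 10 H2A, 10 of 14 H2B, 4 of 8 H3 and 5 of 9 H4. None was lower in PC-3 than in both others (15.0%), none higher in HBC4 (10.3%) and none higher in MKN74 (15.8%). HBC4 was below both other lines in 9 (9.91%), and MKN74 in 2 (11.3%), H1-2 and H2AC17.

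The widest gap was that of H4C8, whose 232035_at averaged 2.88 ± 0.19 (SD, n = 4 arrays) in PC-3, -0.09 ± 0.58 in MKN74 and -2.21 ± 0.53 in HBC4. PC-3 exceeded HBC4 by 5.09 and MKN74 by 2.97 on that probe set, and by 4.85 and 2.90 on 208180_s_at. H2BC21 was higher in PC-3 by 3.16 over HBC4 and by 3.20 over MKN74, and those lines differed by 0.03. H2AC6 was higher by 2.70 and 3.08. H2BC4 was ordered PC-3, MKN74, HBC4, with 4.48 between the first and the last and 1.99 between MKN74 and HBC4 (-1.99 for HBC4 minus MKN74). All 8 probe sets below controls in every line were among the 34 called between lines. The 14 members without a call between lines had G4 differences from -0.07 to 0.28. As no level is known, a probe set near its background cannot be recognised among those 14, and its part in this was not tested.

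**Figure D3:**
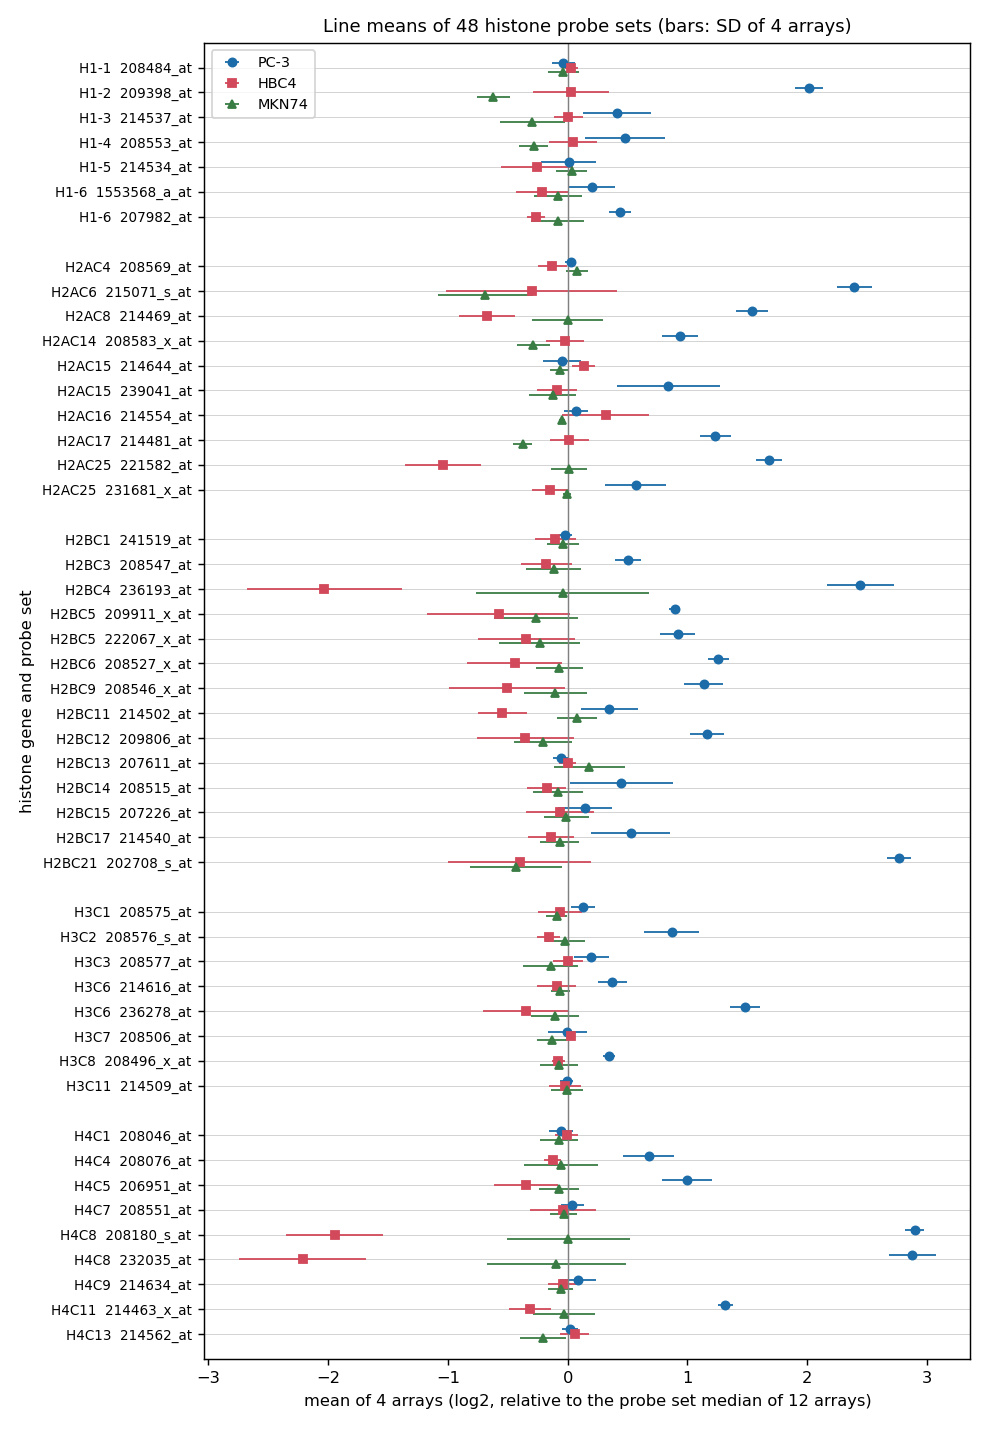
Mean log2 value of the 4 arrays of each line for the 48 histone probe sets, relative to the probe set's median over 12 arrays; bars are the SD of the 4 arrays, which includes the differences between treatments. PC-3 lies to the right in most H2A and H2B rows, and H4C8 and H2BC4 have the widest gaps, with HBC4 lowest.

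Related genes were followed as 5 lists, all described by counts since they belong to the same G4 contrast, in which 1.57% of all probe sets were called. Replication-independent histones replace or supplement the S-phase ones throughout the cycle; 9 of 12 genes were measured, with 5 of 25 probe sets higher and 1 lower, and a median of 0.08. H2AZ2, a variant of H2A, was higher on 3 of its probe sets, by 0.44 ± 0.13 on 227085_at. H2AX, the variant phosphorylated at DNA breaks, was higher by 0.30 ± 0.07 on 212525_s_at, and CENPA, the H3 of centromeres, by 0.36 on 210821_x_at. The other H2AX probe sets averaged between 0.11 (212524_x_at) and 0.30 (213344_s_at). H2AJ was lower, by -0.59 ± 0.16 on 220936_s_at, with -0.25 on 228213_at and -0.08 and -0.04 on its _x_at probe sets. Leaving out the HBC4 array of (uuaggg)4 left 2 calls, and 3 were left without that of the reagent or of (uuaccc)4.

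Factors of histone mRNA processing and transcription differed little: 27 of 28 genes were measured, with 1 of 66 probe sets lower, 0 higher and a median of 0.02. The call was PAPOLA, a poly(A) polymerase, at -0.36 ± 0.14 on 228569_at, while 4 of its other probe sets lay between -0.05 and 0.09 and 209388_at at -0.17; it was lost without any 1 of 11 arrays, all but the HBC4 array of the reagent. SLBP averaged 0.07 ± 0.06. NPAT averaged -0.17 ± 0.11 on 211584_s_at, -0.05 on 209798_at and -0.00 on 211585_at. Histone chaperones, which carry histones to DNA, had 7 of 52 probe sets higher and 0 lower, with a median of 0.07 (20 of 20 genes measured): 5 of NAP1L1, led by 0.55 ± 0.15 on 208753_s_at, and 1 each of SSRP1 and IPO4. Without 1 array, chaperone calls numbered 1 to 6; they were 4 or fewer without any array other than the PC-3 array of AS1411 and the MKN74 array of (uuaccc)4.

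Genes of S-phase DNA replication had 9 of 74 probe sets higher (0.474% of all probe sets) and 0 lower (1.10%), with a median of 0.22 (38 of 39 genes measured). Of the 74, 46 were higher in all 3 lines (19.5% of all probe sets) and 0 lower in all 3 (14.5%). The group was proposed with the rise of such genes known, so nothing is read from these counts. RRM2, a subunit of ribonucleotide reductase, was higher by 0.47 ± 0.16 on 209773_s_at, PRIM1, the primase subunit, by 0.39 ± 0.11, DUT, which removes dUTP, by 0.51 ± 0.26 on 208955_at, and TYMS, thymidylate synthase, by 0.36 ± 0.08 on 202589_at. Other probe sets of these genes averaged 0.28 for RRM2 (201890_at), 0.13 for DUT (208956_x_at and 209932_s_at), and 0.42 (1554696_s_at) and 0.12 (217684_at) for TYMS. PCNA, the sliding clamp, averaged 0.08 ± 0.15 and was not called. These counts changed with single arrays: 0 were left without the AS1411, reagent or (uuaggg)4 array of HBC4, the reagent array of MKN74, or the (uuaccc)4 or (uuaggg)4 array of PC-3, 1 without (uuaccc)4 in HBC4, and 2 without (uuaggg)4 and 4 without AS1411 in MKN74. Genes of cell cycle exit had 2 of 42 probe sets lower and 0 higher, with a median of -0.07 (16 of 19 genes measured). Of the 42, 8 were lower in all 3 lines and 4 higher in all 3 (14.5% and 19.5% of all probe sets). CDKN1C went against the calls: it was higher in all 3 lines on 213182_x_at (0.52 ± 0.38), 216894_x_at (0.23) and 219534_x_at (0.31), without a call. CDKN2B, an inhibitor of CDK4 and CDK6, was lower by -0.45 ± 0.12 on 236313_at, but averaged -0.06 with mixed signs on 207530_s_at. TXNIP was lower by -0.70 ± 0.50 on 201009_s_at. It averaged -0.54 on 201010_s_at and -0.65 on 201008_s_at, with a positive sign in MKN74 on both. Of these calls 0 were left without the reagent or (uuaccc)4 array of HBC4 or the (uuaccc)4 or (uuaggg)4 array of PC-3. Only 1 was left without the AS1411 or (uuaggg)4 array of HBC4, the reagent array of PC-3 or the (uuaggg)4 array of MKN74.

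**Figure D4:**
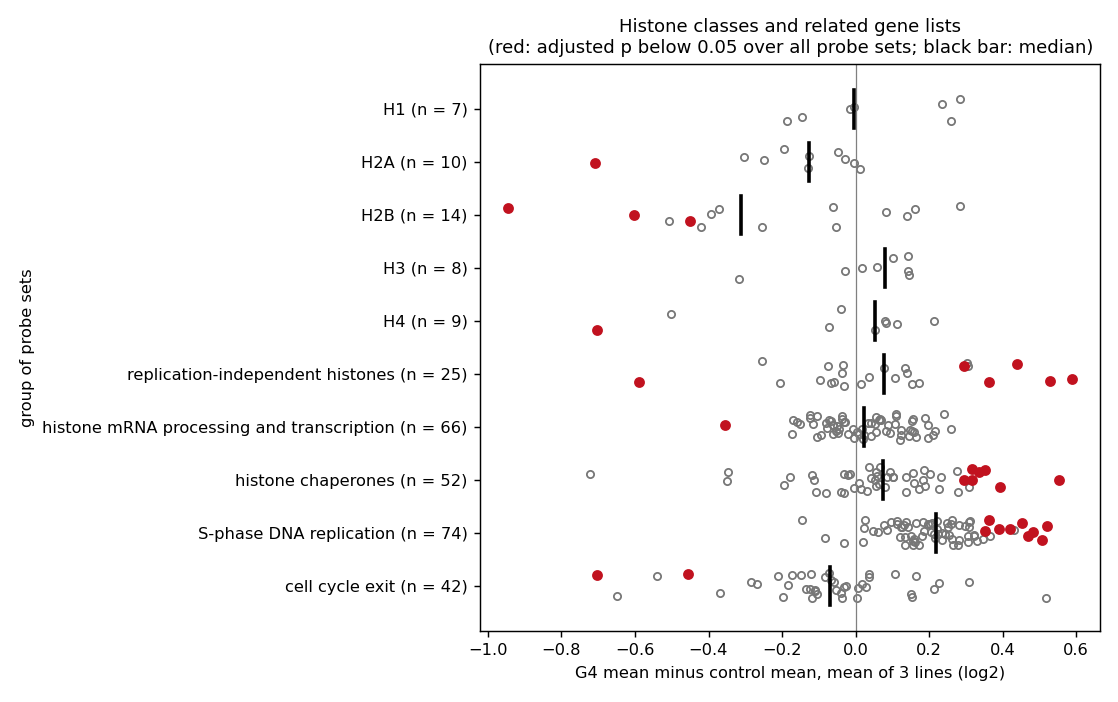
G4 mean minus control mean (log2, mean of 3 lines) for each probe set of the 5 histone classes and of the 5 lists; red points passed an adjusted p of 0.05 over all probe sets (limma), open points did not, and black bars are medians. H2B has the lowest median, -0.31, and the S-phase list the highest, 0.22.

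Array controls that report on RNA length and labelling are given beside these results, and their part in them was not tested. The 3′ minus 5′ difference of GAPDH lay between -0.03 and 0.04 on the 12 arrays. For ACTB the G4 minus control difference of this measure was positive in PC-3 (0.06) and MKN74 (0.11) and negative in HBC4 (-0.30). The 18S rRNA probe sets were lower in the mean of the G4 arrays, by -0.11 in PC-3, -0.24 in MKN74 and -0.07 in HBC4. In PC-3 and MKN74 only AS1411 lay below both controls, and (uuaggg)4 lay between them. In the same order of lines, the 28S rRNA probe sets differed by 0.01, 0.06 and 0.06, and the polyadenylated spike-in controls by 0.04, 0.06 and -0.06.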

How the data were processed

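Expression was measured on 12 arrays. The deposited values are log2 expression; per the submitters' processing notes the authors used RMA, and all row medians are 0 (within 5e-07), which shows a centring per probe set that no label or header names. Base 2 is assumed for the logarithm, as RMA gives it. Of 54675 probe sets, 62 array controls were left out and 54613 tested; gene names come from the platform annotation, and all 48 members matched RefSeq. limma 3.58.1 in R 4.3.3 (lmFit, eBayes) fitted treatment plus cell line (6 residual degrees of freedom), and line plus a class effect per line for the interaction, with Benjamini-Hochberg adjustment over all probe sets and a threshold of 0.05. The line is the block, since a replicate number stands for 1 cell line. No filter on intensity was possible on centred values. The scripts were tested on simulated data.

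The members and the gene lists were chosen with earlier results of these data known. Named members are H2BC4, the up to 2 lowest and 2 highest of each class with 1 sign in 3 lines, those with the smallest p in the tested contrasts and the largest line differences; the remaining names were picked with the values in view. For lists, up to 4 called probe sets by smallest p, with SLBP, NPAT and PCNA, were to be named. H2AX, CENPA, SSRP1, IPO4 and CDKN1C were added. Alternatives were quantile normalization, array medians subtracted, gene level values, other variance priors, no block, and leaving out arrays, lines or cross-reactive probe sets.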

Additional observations from a re-analysis of the deposited data

Results flagged for a closer look

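In 5 of 48 histone probe sets (10.4%, against 16.7% of all probe sets) both G4 arrays lay above both controls in 1 line and below both in another. The interaction test covered these differences, and none passed it. H2BC5 on 209911_x_at differed by 0.0615 in PC-3 but by -0.997 in HBC4 and -0.59 in MKN74 (limma adjusted p = 0.0741), and H2AC8 by 0.19, -0.26 and -0.51 (0.260). H2AC25 on 231681_x_at differed by -0.18 in HBC4 and 0.0512 in MKN74 (0.868), H2BC1 by -0.0651 in PC-3 and 0.29 in HBC4 (0.543), and H3C11 by -0.0869 in PC-3 and 0.19 in HBC4 (0.685).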

How the results depend on the processing

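The 8 leading G4 differences kept their sign under all alternatives run. They were picked for G4 arrays below both controls in each line, so leaving out arrays or lines could hardly change the sign. H3C6 moved by over its SD, to -0.17, as a mean of its probe sets. Subtracting array medians and other variance priors moved no count by over 1.5 times. The replicate number names the cell line, so the fit with the line is the main one; with no replicate block 0 members were called in the G4 contrast and 0 for AS1411 against the reagent, and 0 in each of the 5 lists. Quantile normalization gave 2 members called, 0 for AS1411 against the reagent, 4 in the interaction, and 0 in the processing and the exit list. With probe sets averaged per gene, the H1 median was 0.11, 1 member was called in the interaction, and calls were 2 (replication-independent histones), 0 (processing), 3 (chaperones), 5 (S phase) and 1 (exit). With the probe set of largest spread between lines per gene, the H1 median was 0.11, 2 were called in the interaction, and calls were 3 (replication-independent histones), 2 (chaperones) and 1 (exit). Without _x_at and _s_at members, which leaves fewer of them, 3 were called, the medians were -0.0106 (all) and -0.0522 (H2B), 22 differed between lines and 18 were higher in PC-3. With only the arrays compared, 0 were called for AS1411 against the reagent.

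Without the line PC-3, the member median was -0.0645, the H1 median 0.0702, and calls were 2 (replication-independent histones), 0 (processing), 1 (chaperones), 0 (S phase) and 0 (exit). Without HBC4, 0 members were called, also for AS1411 against the reagent; the H4 median was -0.0655, the H1 median 0.0886 and each list had 0 calls. Without MKN74, 1 member was called in the G4 contrast and 0 for AS1411 against the reagent, with 1 call in the S-phase list and 0 in the replication-independent, processing and chaperone lists. The cause of these changes was not tested, beside the smaller number of arrays.

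Leaving out 1 array at a time gave 1 to 9 members called in the G4 contrast, 0 to 1 for (uuaggg)4 against (uuaccc)4, for AS1411 against the reagent and for the interaction, 0 to 0 for the other 2 treatment contrasts, 31 to 33 between lines and 27 to 32 higher in PC-3. List calls were 2 to 5 (replication-independent histones), 0 to 1 (processing), 1 to 6 (chaperones), 0 to 10 (S phase) and 0 to 2 (exit). Medians ran from -0.0491 to -0.0045 over all members in the G4 contrast, -0.0305 to 0.0851 for H1, -0.15 to -0.083 for H2A, -0.37 to -0.24 for H2B, 0.049 to 0.11 for H3 and -0.0347 to 0.0696 for H4. They ran from -0.0945 to -0.0421 for (uuaggg)4 against (uuaccc)4, -0.0911 to -0.0256 for AS1411 against the reagent, -0.0985 to -0.0056 for (uuaccc)4 against the reagent, and -0.0175 to 0.0861 for AS1411 against (uuaggg)4. The number of arrays, 1 per line and treatment, limits the precision.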
